A study of Mus musculus with 8 samples.

Results

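The distal block of mouse chromosome 15 is the stretch from 74.4 to 103.4 Mb of GRCm38, 28.9 Mb long, and nearly reaches the telomeric end of the regions measured on that chromosome. Every region of the authors' deposited table on chromosome 15 that started at 74411199 or later and ended at 103358603 or earlier was taken as a member, which gave 2800 of the 6326 regions on the chromosome (44.3%) and of 160978 regions in all. The other 3526 regions of chromosome 15 served as the comparison, 3500 of them on the centromeric side and 26 beyond the block. The members were thus chosen by the fold changes, which placed both edges, and the difference between the block and its surroundings is described and not tested.

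Open chromatin was measured by ATAC-seq, in which a transposase cuts and tags accessible DNA, in 8 libraries of mouse bone marrow cells sorted as cKit-positive and negative for lymphoid and erythroid markers, which enriches haematopoietic stem and progenitor cells. The 4 leukemic (AML) libraries all carried 1 deleted copy of the URE, the upstream regulatory element that drives Spi1 (PU.1), and comprised 2 URE-delta/+ Tet2+/- and 2 URE-delta/+ Tet2-/- samples. The 4 normal libraries were 1 each of URE+/+ Tet2+/+, URE-delta/+ Tet2+/+, URE+/+ Tet2+/- and URE+/+ Tet2-/-. The ages, the driver of the Tet2 loss and any pooling of animals are not given in the labels, and the controls are described as age-matched. The authors' deposited table holds 1 log2 fold change per region, leukemic over non-leukemic cells with low PU.1, and does not say which libraries stood on either side. If low PU.1 means the URE deletion, the non-leukemic side was 1 library, and its spread between animals was then not measured. The only normal library with the URE deletion was the 1 heterozygote, and no normal library joined it to Tet2 loss, so the effect of AML and that of the combined genotype cannot be told apart. Every fold change, log2 average abundance (the authors' measure of read level) and adjusted p-value below is a value of that table. No value per library was used, so the depth and replicate spread behind them could not be examined, and no interval is given for them. In bulk cells a loss of cells of one kind cannot be told apart from less open chromatin per cell. A region is said to have risen or fallen where its adjusted p was under 0.001, the threshold of the authors' own sets.

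Chromatin opens where transcription factors and remodelling enzymes displace nucleosomes, most strongly at promoters of active genes and at enhancers. In myeloid progenitors PU.1 binds many enhancers, and Tet2 oxidises methylated cytosines, a step towards DNA demethylation. This end of mouse chromosome 15 carries the Ly6 surface proteins, the shared beta chain of the GM-CSF and interleukin receptors (Csf2rb), the type II keratin genes and the Hoxc cluster.

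Promoters under regions that stood out in the block are shown as examples, as the 250 bases before each RefSeq start (GRCm38.p6), read 5′ to 3′ on the gene's strand. Syt10 and Spats2 are the promoters that met a risen region among the windows listed in the RefSeq table used here, which held 8 of the 106 protein-coding genes in the first 3 Mb of the block and 322 of the 421 in the remainder. Cbx7, Maff, Nr4a1 and Lrrk2 met regions with an adjusted p between 0.001 and 0.05, 2 in each direction, and were chosen after their values were seen. Capitals mark matches on either strand to the ETS-type core GGAAGT, the cAMP-response palindrome TGACGTCA, the GC box GGGCGG and the E-box CACGTG.
Syt10, chr15:89841861-89842110, minus strand: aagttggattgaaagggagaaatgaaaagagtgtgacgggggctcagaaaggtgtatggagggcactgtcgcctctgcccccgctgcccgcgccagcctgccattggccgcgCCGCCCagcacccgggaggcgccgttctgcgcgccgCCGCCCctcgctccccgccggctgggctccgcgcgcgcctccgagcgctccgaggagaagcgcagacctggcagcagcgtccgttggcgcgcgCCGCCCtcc
Spats2, chr15:99126595-99126844, plus strand: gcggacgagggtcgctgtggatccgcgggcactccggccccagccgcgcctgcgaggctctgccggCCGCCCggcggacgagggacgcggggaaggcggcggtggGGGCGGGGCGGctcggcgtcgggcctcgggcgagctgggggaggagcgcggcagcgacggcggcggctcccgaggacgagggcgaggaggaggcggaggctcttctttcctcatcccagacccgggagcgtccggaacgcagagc
Cbx7, chr15:79932647-79932896, minus strand: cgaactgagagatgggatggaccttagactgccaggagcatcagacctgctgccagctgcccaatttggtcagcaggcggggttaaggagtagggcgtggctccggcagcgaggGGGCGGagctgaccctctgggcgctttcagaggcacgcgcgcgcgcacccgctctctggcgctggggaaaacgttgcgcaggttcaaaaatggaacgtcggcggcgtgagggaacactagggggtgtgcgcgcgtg
Maff, chr15:79347270-79347519, plus strand: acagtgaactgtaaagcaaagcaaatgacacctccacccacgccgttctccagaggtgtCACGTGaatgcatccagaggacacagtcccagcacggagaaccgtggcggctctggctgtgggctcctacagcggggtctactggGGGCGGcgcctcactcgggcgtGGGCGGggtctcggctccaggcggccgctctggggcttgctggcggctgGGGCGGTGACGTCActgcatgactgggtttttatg
Nr4a1, chr15:101266596-101266845, plus strand: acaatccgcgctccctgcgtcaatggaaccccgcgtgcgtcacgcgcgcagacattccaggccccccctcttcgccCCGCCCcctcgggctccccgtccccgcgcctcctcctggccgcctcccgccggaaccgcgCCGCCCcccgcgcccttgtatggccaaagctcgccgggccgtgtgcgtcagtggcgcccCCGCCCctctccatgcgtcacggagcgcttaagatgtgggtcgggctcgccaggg
Lrrk2, chr15:91672974-91673223, plus strand: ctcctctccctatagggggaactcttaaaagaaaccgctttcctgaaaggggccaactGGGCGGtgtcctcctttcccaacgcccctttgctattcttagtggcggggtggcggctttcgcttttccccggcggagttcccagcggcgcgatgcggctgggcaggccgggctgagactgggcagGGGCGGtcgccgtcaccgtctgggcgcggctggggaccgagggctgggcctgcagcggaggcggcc
All 6 are rich in G and C, from 64.0% in Maff to 78.4% in Spats2, and all hold GGGCGG, 3 times in Syt10, Spats2, Maff and Nr4a1, 2 times in Lrrk2 and 1 time in Cbx7. The Maff sequence also holds CACGTG and TGACGTCA, 1 time each, and none of the 6 holds GGAAGT. The region over the Syt10 promoter had a log2 fold change of 2.84, that over Spats2 2.20, over Cbx7 1.95 and over Maff 1.62. The 5 regions assigned to Maff had a median of -0.29, with 1 more and 1 less accessible at the 0.05 level. Over the promoters of Nr4a1 and Lrrk2 the values were -1.30 and -1.85. GGGCGG was thus present in promoters with values on both sides of 0.

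The fold changes of the block as a whole were shifted upwards in leukemic cells. They rest on read counts, and whether DNA copy number differed along the chromosome was not tested. Its median log2 fold change in the authors' deposited table was 0.35 (quartiles -0.32 and 0.84), against -0.07 (quartiles -0.77 and 0.53) in the rest of chromosome 15, a difference of 0.42. Of the block's regions 64.6% had a positive fold change, against 47.5% in the rest of the chromosome and 50.8% on the other autosomes. The shift was small beside the spread of single regions, and positive and negative values overlapped widely on both sides of the boundary.

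Within the block 63 regions rose (2.25%) and 20 fell (0.714%), where 1.24% of all regions tested rose and 1.22% fell. The rest of chromosome 15 showed the opposite balance, with 37 regions that rose (1.05%) and 53 that fell (1.50%). At the looser threshold of an adjusted p under 0.05, 456 block regions (16.3%) were more accessible and 176 (6.29%) less accessible, against 7.98% and 9.21% of all regions. At the stricter 0.0001 there were 17 and 4, where 0.387% and 0.252% of all regions passed. These counts come from the contrast that placed the block and carry no separate weight.

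At the centromeric edge the values did not step up at once. The region just outside (74403659 to 74403917) had a log2 fold change of -1.39, and the first 3 regions inside had -0.73, -0.15 and -1.38. At the telomeric edge, inside Itga5, an integrin alpha chain, the last 3 regions inside had 0.10, 0.65 and -0.64 and the first 3 outside -0.90, -0.67 and 0.61. None of these 12 edge regions passed the 0.05 level, and the edges mark the ends of an average and not a sharp change.

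**Figure D1:**
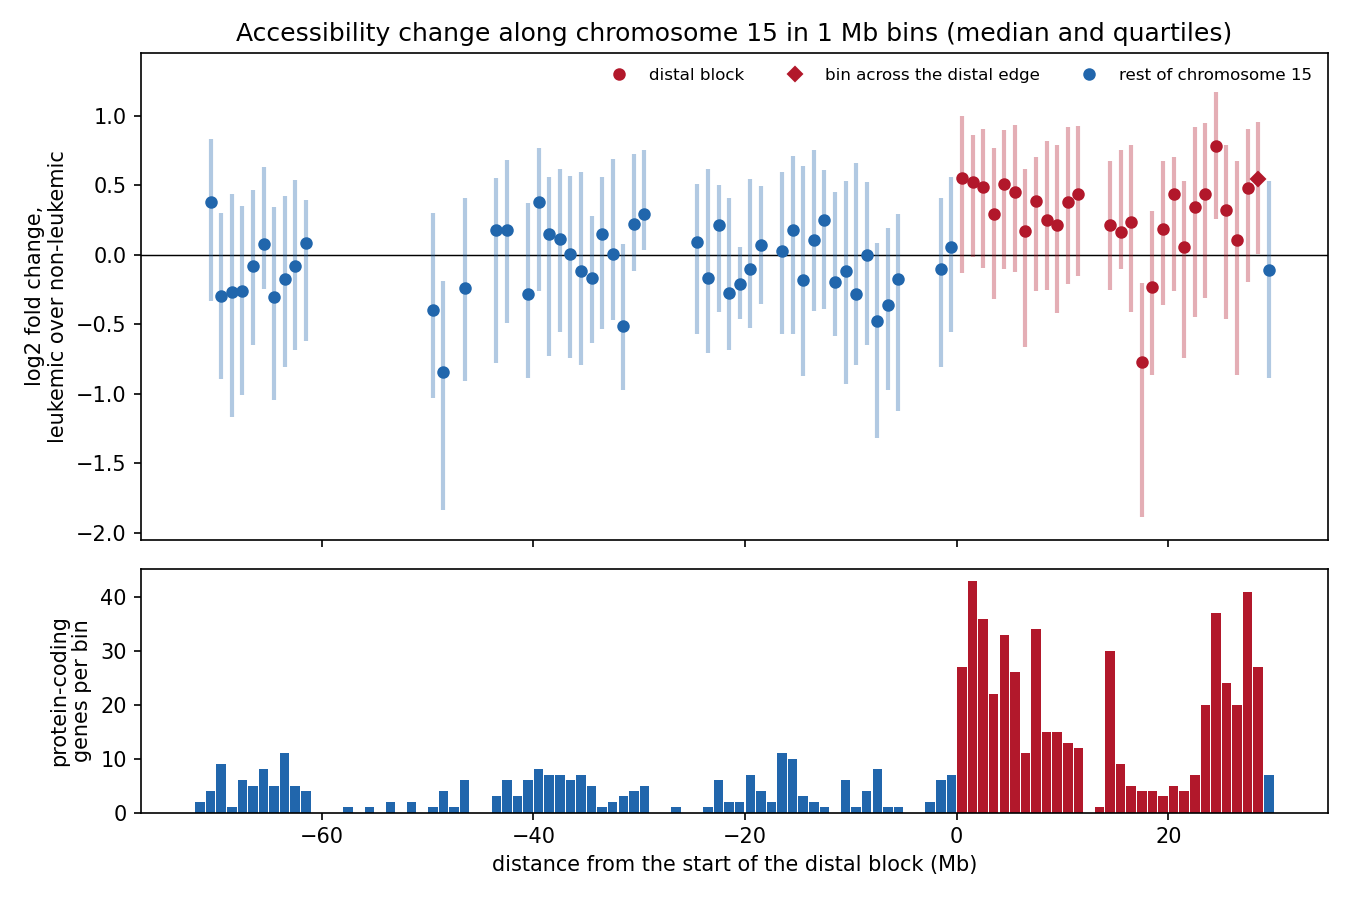
Median log2 fold change (points) and quartiles (bars) of 1 Mb bins with at least 20 regions along chromosome 15 (top) and protein-coding genes per bin (bottom), against the distance in Mb from the start of the block. The diamond is the bin that crosses the telomeric edge, which is not counted; of the 26 block bins 24 lie above 0, and the deepest block bin, at -0.78, falls in the gene-poor run.

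Along the block the shift was broad. In bins of 1 Mb with at least 20 regions, 24 of the block's 26 bins had a positive median, from -0.78 to 0.78, and in the rest of the chromosome 21 of 49 did, from -0.84 to 0.38. The highest bin ran from 98.4 to 99.4 Mb, held 37 protein-coding genes and had 82.0% positive values. The lowest ran from 91.4 to 92.4 Mb around Lrrk2, with 17.5% positive values among 40 regions.

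That low bin opens a gene-poor run of 3 bins, from 91.4 to 94.4 Mb, with 11 protein-coding genes (3.67 per Mb). Its 165 regions centred on -0.17, the median log2 fold change, with 0 regions that rose and 1 that fell; at the 0.05 level 5 were more and 20 less accessible. The stretch before it (1635 regions, 19.5 protein-coding genes per Mb) had a median of 0.37 with 34 rises and 8 falls, and the stretch after it (1000 regions, 20.7 per Mb) a median of 0.40 with 29 rises and 11 falls. The block thus held 2 stretches of like median around a gene-poor run whose median lay below 0. The run was set apart after the values were seen, and its 3 bins had medians of -0.78, -0.24 and 0.18. Other gene-poor bins lay outside it. That at 95.4 Mb, with 4 protein-coding genes, had 0.05. Those at 86.4 and 87.4 Mb, with 0 and 1 genes and only 14 and 5 regions, had 0.29 and -0.48.

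Gene density changed sharply at the block's start. The block held 528 protein-coding genes, 18.2 per Mb, and 96.7 regions per Mb; the chromosome before it held 239, or 3.35 per Mb, and 49.0 regions per Mb. Protein-coding genes covered 52.3% of the block's bases and 34.7% of those before it. Across the 18 other autosomes taken whole, density ran from 5.80 per Mb on chromosome 12 to 14.2 on chromosome 7, and the median log2 fold change from -0.56 to 0.23, so none reached the block on either measure, although a stretch picked for its level is not like a whole chromosome.

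**Figure D2:**
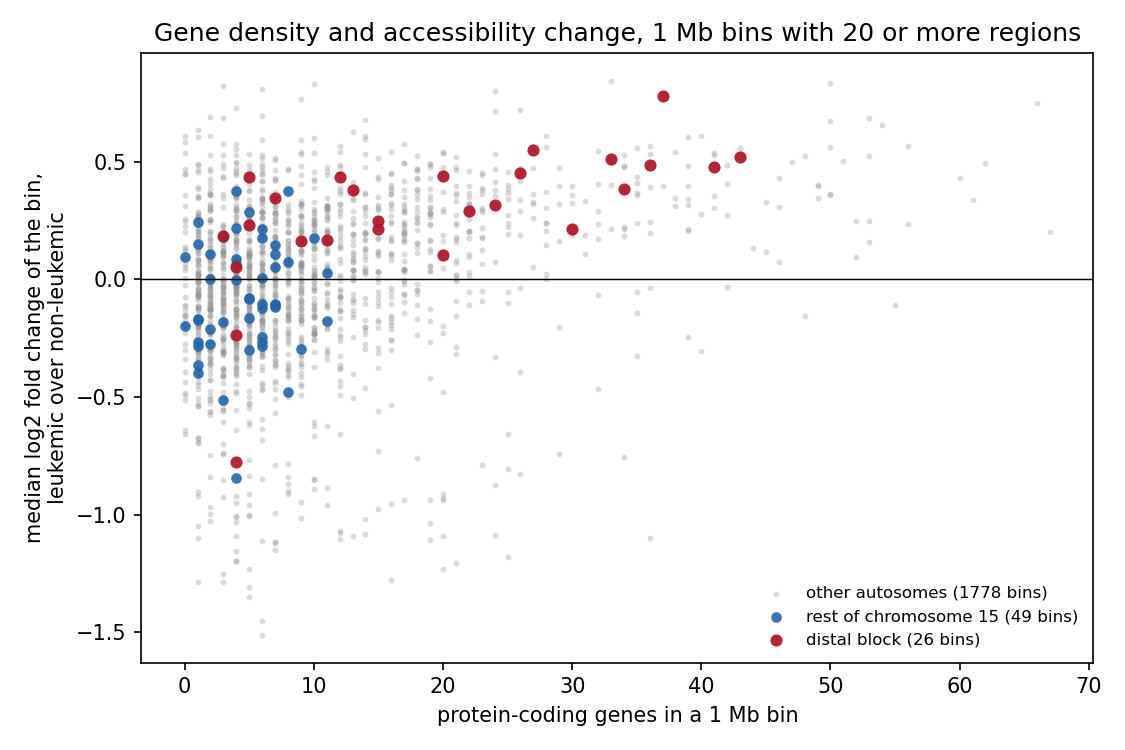
Protein-coding genes in a 1 Mb bin (horizontal) against the bin's median log2 fold change (vertical), for bins with at least 20 regions: 26 of the block (red), 49 of the rest of chromosome 15 (blue) and 1778 of the other autosomes (grey). All 13 block bins with 20 or more genes lie above 0, as do 186 of 231 such bins elsewhere.

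Gene-rich bins elsewhere in the genome were also shifted upwards. In bins with 20 or more protein-coding genes the median of the bin medians was 0.45 over the block's 13 bins and 0.29 over 231 bins of the other autosomes (quartiles 0.08 and 0.40). Of the block's 13 bins 11 lay above that 0.29, and of the 231 others 48 (20.8%) lay above the block's 0.45. With 10 to 19 genes the values were 0.25 over 5 block bins and 0.11 over 444 others, and with 5 to 9 genes 0.29 over 4 block bins and -0.01 over 539 others. In the thinnest class, 0 to 4 genes, the 4 block bins had -0.09, against -0.17 over 23 bins of the rest of the chromosome and -0.06 over 564 bins elsewhere.

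No bin of the rest of chromosome 15 with at least 20 regions held 20 or more protein-coding genes. There 40.7% of regions lay in bins with 0 to 4 protein-coding genes and 50.6% in bins with 5 to 9, whereas 61.5% of block regions lay in bins with 20 or more. Set against regions of the other autosomes in the same density class, the block's median was higher by 0.20, compared with 0.32 without regard to density. Across the 26 block bins Spearman's rank correlation between gene number and median fold change was 0.74; it was 0.15 over the 49 other bins of the chromosome and 0.30 over 1778 bins of the other autosomes. Bins that hold more genes also held more abundant regions (rank correlation 0.88 in the block), so these descriptions share their source.

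By location the block was richer in gene ends. Gene ends, here region centres within 1 kb of either end of an annotated gene, made up 616 of 2800 block regions (22.0%, exact binomial 95% interval 20.5 to 23.6%), against 10.2% (9.20 to 11.2%) in the rest of chromosome 15 and 15.4% on the other autosomes. The interval covers counting error only. Gene interiors took 52.7% of block regions and intergenic positions 25.3%, against 55.0% and 34.8% in the rest of the chromosome.

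The upward shift was nearly even over the 3 kinds of position. Median log2 fold changes in the block were 0.38 at gene ends, 0.33 in gene interiors and 0.35 between genes. In the rest of chromosome 15 gene ends stood at 0.18 and the other classes at -0.10 each, and on the other autosomes the same order held, with 0.19, -0.01 and -0.02. The block therefore differed least from the rest at gene ends (0.20) and more in interiors (0.43) and between genes (0.45). Of its 462 regions at ends of protein-coding genes 10 rose (2.16%) and 0 fell, and in the rest of the chromosome 3 of 208 rose and 6 fell. Over all 16392 regions of this kind 1.19% rose and 1.52% fell.

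**Figure D3:**
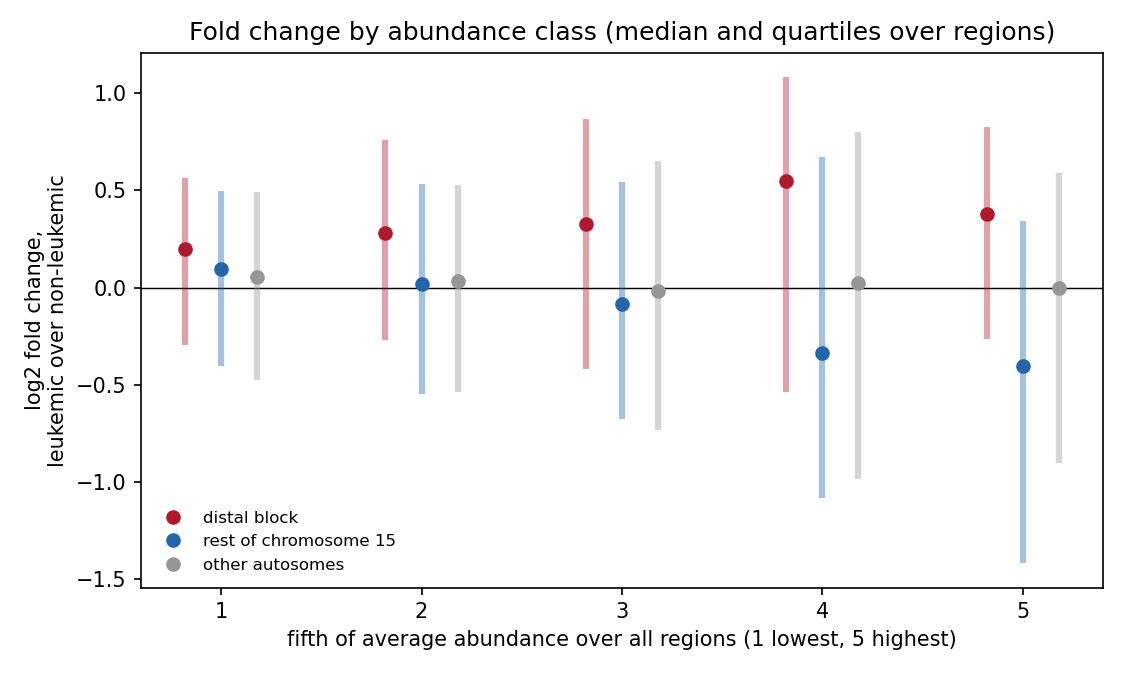
Median log2 fold change (points) and quartiles over regions (bars) in 5 equal classes of the authors' log2 average abundance, set over all regions, for the block (red), the rest of chromosome 15 (blue) and the other autosomes (grey). The block lies above the rest in every class, with 0.20 against 0.10 in the lowest, 0.55 against -0.34 in class 4 and 0.38 against -0.41 in the highest.

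Block regions were also more abundant, with a median log2 abundance of -0.47 against -1.35 in the rest of the chromosome and -1.16 on the other autosomes, while the median width was alike at 335 and 333 bp. The most abundant of 5 equal classes, set over all regions, took in 906 block regions (32.4%). From the lowest to the highest class the block's median fold changes were 0.20, 0.28, 0.33, 0.55 and 0.38, and those of the rest 0.10, 0.02, -0.09, -0.34 and -0.41. On the other autosomes all 5 medians lay between -0.02 and 0.05. In the top class the block had 33 rises and 19 falls among 906 regions, and the rest of chromosome 15 had 16 rises and 47 falls among 557. The same class of the other autosomes had 779 rises and 1609 falls among 30200 regions.

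In 13 of the 15 classes formed by location and abundance the block stood above the rest. The gap ran from -0.11, at gene ends of the lowest abundance class, to 1.12, in gene interiors of the highest, where the block's median was 0.41 and that of the rest -0.70. Between genes in the highest class the medians were 0.37 and -0.74. The contrast at high abundance thus held a raised block and a lowered remainder of the chromosome.

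Listed promoters of the block held more CpG than those of the rest of the chromosome. The RefSeq table held 664 promoter windows (250 bases before to 50 after a start) for 533 genes of the block, with a median GC content of 56.7% and 9 CpG, against 47.3% and 4 CpG in 272 windows of the rest of the chromosome and 52.7% and 7 CpG in all windows. Among windows that met a measured region the block and the rest both had a median of 21 CpG, against 19 over all such windows. Of the block's windows 348 (52.4%) met a measured region, against 35.3% in the rest and 51.1% of all 32851 windows. The log2 fold changes of the 273 regions at these listed windows had a median of 0.38, against 0.01 over 73 regions in the rest and 0.19 over 12991 in the genome. Of the 273 block regions 2 rose and 0 fell, and of the 12991 in the genome 118 rose and 254 fell. The first 3 Mb of the block gave 25 of the 664 windows, and the 3 risen regions at gene ends there, at Them6 (2.03), Fam83h (2.34) and Mapk15 (1.87), met none. GGGCGG, which Sp-family factors bind, was found in 42.8% of the block's windows, 21.3% of those in the rest and 35.7% of all. CACGTG was found in 8.43%, 3.31% and 7.15%, TGACGTCA in 1.66%, 0.74% and 1.79%, and GGAAGT in 24.7%, 23.2% and 23.8%. A match is a description of letters on either strand and not a bound site.

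**Figure D4:**
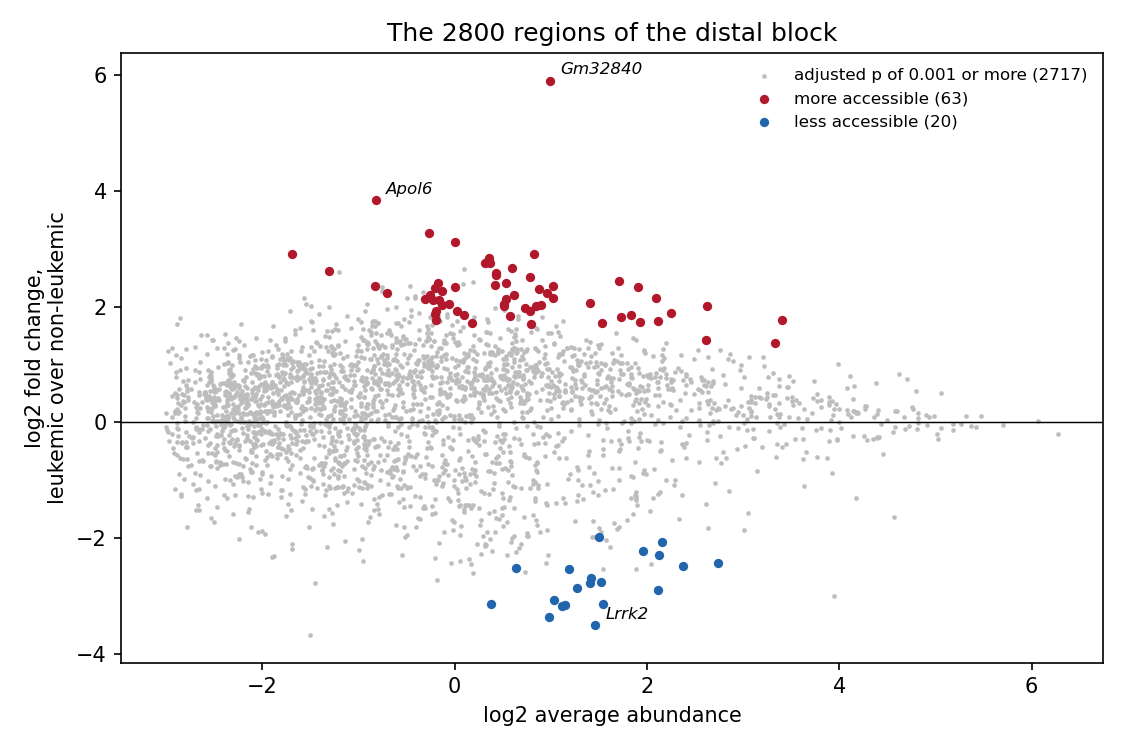
The 2800 regions of the block by log2 average abundance (horizontal) and log2 fold change (vertical). The 63 regions that rose are red and the 20 that fell blue, and the highest point, in Gm32840, stands at 5.89, clear of the next at 3.83.

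The largest rise in the block, and of all 160978 regions of the authors' deposited table, lay at 97059629 to 97060375, with a log2 fold change of 5.89 (59.5-fold) and an adjusted p of 8.37e-07. It lies inside the non-coding RNA gene Gm32840 and 4.05 kb upstream of an annotated start of Slc38a4, a neutral amino acid transporter known in mouse as a paternally expressed imprinted gene. The next rises were 3.83 in the block and 5.33 in the genome. The region stood alone: none of the 11 other regions within 100 kb rose or fell at the 0.001 level, their median was 0.25, and the nearest lay 44.2 kb away. The 3 regions assigned to Slc38a4 itself had 0.00, 0.60 and 1.18, and none passed 0.05.

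Its neighbours of the same transporter family went different ways, a grouping made after the values were seen. Slc38a1, which encodes a glutamine transporter, had 10 negative values among 12 regions and a median of -1.04, and 1 region inside it fell by 2.29 (adjusted p 0.000134). Slc38a2, a transporter induced when amino acids are scarce, had 7 positive values among 10 and a median of 0.58, and 1 region inside it rose by 1.86 (adjusted p 0.000457). At the 0.05 level Slc38a1 had 0 more and 5 less accessible regions and Slc38a2 had 4 and 1.

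Rises in the block had a median log2 fold change of 2.14 (1.38 to 5.89), a median width of 292 bp and a median abundance of 0.52. The falls were fewer, larger in size, wider and more abundant, with a median of -2.76 (-3.50 to -1.97), 827 bp and 1.44. Of the rises 37 lay in gene interiors, 12 at gene ends and 14 between genes, and of the falls 11, 2 and 7. Over all regions the same contrast held, with median widths of 346 bp for rises and 752 bp for falls.

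Some changed regions lay near others of the same direction, in a block with 63 rises and 20 falls. Counts of groups and genes with changed regions are given for the block only, so no wider share stands beside them. Of the 83 changed regions 49 had no other within 20 kb. In 16 groups of changed regions with neighbouring centres no more than 20 kb apart, 34 regions in all, 14 groups held only rises, 2 only falls and 0 both. By nearest gene, 66 of 678 genes with regions had at least 1 changed region, 48 with rises only, 17 with falls only and 1 with both, and 15 had more than 1. The gene with both was Ano6, a membrane scramblase, in whose body 1 region rose, at 1.72, and another fell, at -2.78, with centres 21.2 kb apart.

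**Figure D5:**
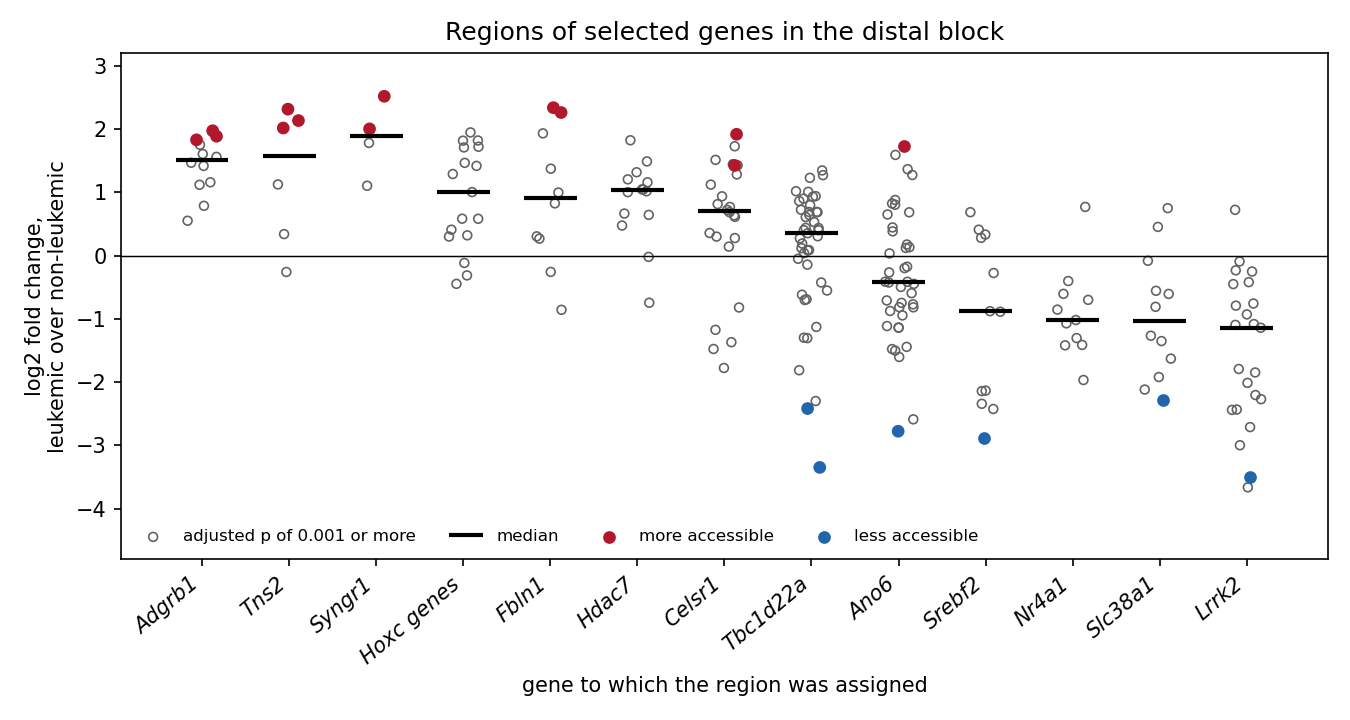
Log2 fold changes of all regions assigned to selected genes (1 point per region, filled where the adjusted p is under 0.001, black line the median). Adgrb1 has all 12 regions above 0, and Lrrk2 has 22 of 23 below 0.

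Adgrb1, an adhesion receptor that recognises dying cells, had positive values along its whole length. In order along the chromosome its 12 regions had log2 fold changes of 1.60, 1.89, 1.47, 1.56, 1.83, 1.75, 1.97, 1.12, 0.79, 0.55, 1.16 and 1.42. Of these 3 rose and 7 passed 0.05, and the higher values lay in the first 7.

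Tns2 encodes tensin 2, an adaptor of focal adhesions. Its 6 regions had 0.34, 2.13, 2.01, 2.31, 1.12 and -0.26. The 3 that rose are adjacent and lie within 2.95 kb.

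Syngr1 encodes a synaptic vesicle membrane protein, synaptogyrin. Its 4 regions were all positive, with a median of 1.89, and 2 of them rose, the higher at 2.52. A further rise of 3.11 lay 3.51 kb upstream of a Syngr1 start, assigned to Gm24204.

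Smaller groups of rises lay in or near other genes, with 2 risen regions each by nearest gene. Fbln1, a matrix glycoprotein, had 2.34 and 2.26; Celsr1, a cadherin of planar polarity, had 1.92 and 1.42; and Endou, an endoribonuclease, had 2.05 and 1.70. Tmbim6, an inhibitor of cell death in the endoplasmic reticulum, had 2.23 and 1.92. Tnrc6b, a scaffold of microRNA silencing, had 1.78 inside it and 1.73 at 4.10 kb outside. Ttll8, an enzyme that modifies tubulin, had 2.75 and 2.58, and Pced1b 2.91 and 2.03. Wbp2nl had 2.61 inside it and 3.27 at 3.35 kb outside. The Gm8444 values, 2.67 and 2.14, both lay between genes, 3.42 and 2.10 kb from it. Single large rises lay 1.67 kb outside Apol6 (3.83), a member of the apolipoprotein L family, and in Slc2a13 (2.90), a proton-coupled inositol transporter. Others were at Itgb7 (2.77), the integrin beta chain of gut-homing lymphocytes, and Igfbp6 (2.76), which binds insulin-like growth factors. These genes share no single function named by the lists used here.

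Falls were led by a region 31.0 kb outside Lrrk2, a large kinase gene, at -3.50 (adjusted p 0.000166). Lrrk2 had 23 regions with a median of -1.14, of which 22 were negative and 9 less accessible at the 0.05 level. The promoter region shown above, at -1.85, is one of the 9. The low values were not confined to the gene body, as 8 negative regions lay before it.

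Tbc1d22a, which encodes a protein with a Rab GTPase-activating domain, had 2 regions that fell, at -3.35 and -2.42, among 43 regions with a positive median of 0.35. By nearest gene 2 intergenic falls went to Gm41393, at -3.17 (8.27 kb away) and -3.14 (97.4 kb away). The formin gene Fmnl3 had a region at -3.13, 9030619P08Rik at -3.15, Gm35831 at -3.07 and Arhgap39 at -2.86, all of which fell. At the 0.05 level Tbc1d22a had 3 more and 4 less accessible regions, and in Gm35831 all 5 regions were negative.

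Srebf2, the factor that switches on cholesterol synthesis, had a region that fell by 2.89 (82197295 to 82198785, adjusted p 0.000421) inside the gene. The gene runs from 82147269 to 82205379, and the region counts as a gene end only through another annotated gene. Of the 12 regions of Srebf2 8 were negative, with a median of -0.88, and 5 were less accessible at the 0.05 level. The most abundant region of Srebf2 had -0.28. The fallen region contains the hairpin of Mir33 (82198122 to 82198190, plus strand), a microRNA known to repress cholesterol export. Its mature forms are shown, from RefSeq, with the seed (bases 2 to 8) in capitals.
mmu-miR-33-5p: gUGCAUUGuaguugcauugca
mmu-miR-33-3p: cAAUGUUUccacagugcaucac
Of 31 microRNA hairpins in the block 7 lay within 1 kb of a region, and Mir33 was the one at a changed region. ATAC-seq does not measure the microRNA itself.

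Nr4a1, an orphan nuclear receptor whose joint loss with Nr4a3 leads to AML in mice, had 11 regions, whose log2 fold changes had a median of -1.02. Of these 10 were negative and 6 less accessible at the 0.05 level, although none passed 0.001. In order the values were -0.61, 0.77, -0.86, -1.07, -0.70, -1.42, -1.97, -1.02, -1.41, -1.30 and -0.40. The lowest, -1.97, and the promoter region, -1.30, both had adjusted p-values of 0.0011, just outside the threshold. The 1 Mb bin around Nr4a1 (100.4 to 101.4 Mb) was itself low for the block, with a median of 0.10 and 53.9% positive values, and nearby Acvrl1 and Galnt6 had medians of -0.76 and -0.92.

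Of the 24 transcription factors listed, with 118 regions, 1 region rose and 2 fell, and the median was 0.18, against 0.35 over the block and 0.02 over all regions tested. The rise was in Zfp385a, a zinc finger protein (2.36), and the falls in Srebf2 and in the zinc finger gene Zfp740 (-2.75). At the 0.05 level 15 regions were more and 16 less accessible. The shares at that level were 16.3% and 6.29% over the block, and 7.98% and 9.21% over all regions tested. All counts at 0.05 for the lists and genes below stand beside these shares. The most abundant region of the block was that of Sp1, a factor that binds GC boxes, with a log2 abundance of 6.27 and a log2 fold change of -0.19. Rarg, a retinoic acid receptor, had 4 of 7 regions more accessible at 0.05.

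Chromatin regulators had a median of 0.52 over 107 regions of 19 genes, with 1 region that rose and 0 that fell. At 0.05 there were 16 more and 1 less accessible, where 16.3% and 6.29% of block regions were. The rise was in Sun2, a protein of the nuclear envelope (1.85). Hdac7, a histone deacetylase, had 12 positive values among 14 regions, a median of 1.03 and 6 regions more accessible at 0.05. Ep300, a histone acetyltransferase, held the list's most abundant region, at 0.12, and a median of -0.86 over 7 regions.

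The Hoxc cluster had the highest median of the gene lists given here, 1.00 over 17 regions of 7 genes with regions among 9 in the cluster. None rose at 0.001, and 8 were more and 0 less accessible at 0.05, against 16.3% and 6.29% of block regions. Hoxc13 had 1.81, the 2 regions of Hoxc10 had 1.72 and 1.82, and Hoxc9 reached 1.95. The lowest of the 4 regions of Hoxc9 had -0.45, and Hoxc8 had 0.58. Hoxc6 ran from -0.31 to 1.71 over 5 regions, Hoxc5 had 1.42, and the 3 regions of Hoxc4 had 0.30, -0.12 and 0.58. Regions past 0.05 thus lay in Hoxc5, Hoxc6, Hoxc9, Hoxc10 and Hoxc13.

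Ly6 genes, which encode small surface proteins used as marrow cell markers, had a median of 0.44 over 38 regions of 13 genes among 17, with 0 rises and 0 falls. At 0.05 there were 4 more and 0 less accessible regions, in Ly6e, Ly6d and Lynx1, against 16.3% and 6.29% of block regions. Ly6c2, the monocyte marker with the most abundant region of the list, had values from 0.09 to 0.98, and Ly6g, the neutrophil marker, from -1.04 to 0.65.

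Haematopoietic receptor and immune signalling genes had a median of 0.20 over 93 regions of 17 genes, with 0 rises and 0 falls. Csf2rb had 10 positive values among 13 regions, a median of 0.84 and 3 regions more accessible at 0.05, whereas its neighbour Csf2rb2 had 1 positive value among 4 and a median of -0.87. Grap2, an adaptor in T cells, had a median of -0.83 over 19 regions, 4 of them less accessible at 0.05. The most abundant region belonged to Pim3, a survival kinase, at 0.59. Csf2rb and Csf2rb2 are closely similar copies, so the authors' read assignment between them is uncertain.

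Adhesion and guidance genes had 5 rises, in Celsr1, Fbln1 and Itgb7, and 1 fall, in Acvrl1 (-2.68), a receptor of the TGF-beta family, with a median of 0.30 over 103 regions of 14 genes. Celsr1 also held the list's most abundant region, at 0.36. Mitochondrial and metabolic genes had 3 rises by nearest gene and 1 fall, in Slc38a1, with a median of 0.45 over 67 regions of 16 genes among 18. The rises were at St13, a cochaperone of Hsc70 (2.11), in Slc38a2, and 15.1 kb outside Slc25a17, a peroxisomal carrier (2.10). Dgat1, which makes triglycerides, held the most abundant region, at -0.07. In both lists the most abundant region was not among those that changed.

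Cell cycle and DNA repair genes had a median of 0.55 over 52 regions of 14 genes, and RNA binding and splicing genes 0.47 over 41 regions of 12 genes among 14, with 0 rises and 0 falls in both. Their most abundant regions were those of Rbx1, a subunit of ubiquitin ligases, at -0.07, and of Eif4b, a translation initiation factor, at 0.20. Keratin genes, which serve epithelia, had 0.54 over 46 regions of 19 genes among 27, again with 0 rises and 0 falls. The most abundant keratin region was assigned to Krt78, at 0.72. Apol and Cyp2d genes had 0.41 over 40 regions of 17 genes among 32, with the rise near Apol6 and no fall, and Apol8 held their most abundant region, at 0.34. These are families of close copies, where the assignment of reads is uncertain.

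The medians of the lists given here were all above 0, and 8 of them were above the block's own 0.35. The lists were chosen with earlier results of these data known, and their regions share the shift that defines the block. Over genes with at least 5 regions, 132 of 187 had a positive median, from -1.24 in Gm35831 to 1.57 in Tns2.

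As a check of the cells, the 5 stem and progenitor markers had log2 abundances of 1.66 to 3.26 at their most abundant regions, and the 5 T cell markers -2.30 to -0.48. Among markers of the depleted kinds, Klf1 (erythroid) reached 4.11 and Pax5 (B cell) 2.41, and no marker region of the depleted kinds rose or fell. Of the monocyte marker regions 6 of 37 rose, 5 of them in F13a1 and 1 in Ccr2, and 0 fell, while the most abundant regions of Csf1r and Ccr2 had -1.36 and -1.13. Of the stem and progenitor marker regions 1 of 63 rose and 6 fell, and of the granulocyte marker regions 2 of 21 rose and 1, in Ltf, fell, where 1.24% of all regions rose and 1.22% fell. The part of cell makeup in the block's values was not tested. The region at the Spi1 upstream element itself, on chromosome 2, fell by 7.30 (log2, adjusted p 1.26e-06). The labels give every AML library 1 deleted copy of this element, and loss of 1 of 2 copies alone would give a far smaller fall. What lay behind the size of the fall was not tested, so the value is no check of the genotypes or of the libraries compared.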

How the data were processed

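The members and gene lists were chosen with earlier results of these data known. Bowtie2 2.4.1, SAMtools 1.10.2, Genrich 0.6 and GRCm38 (mm10) are named in the submitters' processing notes; their settings, any shift of reads for the transposase and the csaw settings (a window-based test named in the file title) were not given in the sources used here. Both log2 fold change and log2 average abundance per region, and the p-value with its adjusted p-value, are the authors' deposited values. The deposited sets equal the regions with an adjusted p under 0.001 and the matching sign. No values per library were used, so depth per sample and replicate error are unknown. Coordinates are as deposited, and the sources do not state if starts are counted from 0 or 1.

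Each region centre was given to the nearest RefSeq gene extent (GRCm38.p6, 49554 genes) within 100 kb, without strand or exons. All 2800 block regions were assigned. Medians, counts and exact binomial intervals were computed in Python 3.11.15 with pandas 2.3.3, numpy 2.4.6 and scipy 1.17.1. The difference of medians within classes was checked on simulated fold changes, and the nearest-gene rule on a small made-up set. Bins of 1 Mb needed 20 regions. Named genes were those with at least 2 changed regions (at most 12), the genes of the 10 most raised and 10 most lowered regions, the edge regions and, per list, members with a changed region and the member with the most abundant one; other genes, such as Nr4a1, Hdac7 and Slc38a4, were named after their values were seen. One gene list is not reported here. The alternatives tried were other thresholds, edges, location rules, abundance limits and reference regions. No test of the block was made.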

Additional observations from a re-analysis of the deposited data

How the results depend on the processing

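The block's median log2 fold change of 0.35 moved to 0.22 as a mean and to 0.42 above the median abundance, and it was 0.33 to 0.38 without gene ends, with both edges 1 Mb inward or outward, or without the gene-poor run. In the gene-poor run alone it was -0.17; the cause was not tested. The difference of 0.42 from the rest of chromosome 15 became 0.20 at gene ends and 0.56 within classes of location and abundance. Against the other autosomes it was 0.32, or 0.37 within classes of location and abundance, 0.20 within classes of gene density and 0.21 within classes of density, location and abundance. The settings on the gene-poor run and those within classes of the other autosomes were added after seeing the data. Rises numbered 17 and falls 4 at an adjusted p under 0.0001 (0.387% and 0.252% of all regions), and 456 and 176 under 0.05. The share at gene ends was 40.8% with a reach of 3 kb and 16.5% for protein-coding genes alone. The 66 genes with a changed region became 60 and 64 under other assignments. No paired analysis was possible because library values were not analysed here, which also left no replicate to leave out and no depth to weigh.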
